A study of Homo sapiens with 9 samples.

Results

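The genes around HTT form a block of 53 genes in roughly the first 4.6 Mb of chromosome 4, from ZNF595 near the end of the short arm to STX18, out of 60683 genes counted. They were chosen by position after HTT had been seen to move in opposite directions in 2 reporter clones of HEK293T, so every difference from parental cells given here is a description of members selected on these same contrasts, and no test supports it. The question was whether HTT moved alone or together with its neighbours. RNA was sequenced from 9 libraries of HEK293T, a long-established line from human embryonic kidney that makes SV40 large T antigen, in 3 groups of 3 replicates. Parental cells carried no reporter. In clone 15 and clone 37 the piggyBac transposon had inserted 2 luciferase reporters, one with 60 CAG units followed by a Myc tag and NanoLuc (NLuc) and one with 0 CAG units, a Myc tag and firefly luciferase (FLuc). Clone 15 expressed both integrands at a low level and clone 37 at a high level, per the labels, and each level was represented by 1 clone. The level of integrand expression and any other difference between the single cells that founded the clones cannot be told apart.

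HTT encodes huntingtin, a large scaffold protein of vesicle transport and autophagy, and expansion of the CAG tract in its first exon causes Huntington's disease. Its neighbourhood is dense in genes and holds FGFR3, the receptor mutated in achondroplasia, NSD2 and LETM1, which lie in the region deleted in Wolf-Hirschhorn syndrome, and IDUA, the lysosomal enzyme lost in Hurler syndrome. The members share a position and, for the most part, no pathway.

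The sequences that define the locus are shown first because the reporters carry the same triplet as HTT. The first 150 bases of the HTT coding sequence, in exon 1 of 67 of its main GENCODE 29 transcript (GRCh38, chr4:3074826-3074975, plus strand), hold an uninterrupted run of 19 CAG units in the reference, at bases 52 to 108 counted from the A of the start codon. The gene's annotated span, chr4:3041422-3243960, begins further upstream because it includes transcripts with earlier starts, and distances from HTT are taken from that span. The capitals mark the CAG run.
HTT coding start: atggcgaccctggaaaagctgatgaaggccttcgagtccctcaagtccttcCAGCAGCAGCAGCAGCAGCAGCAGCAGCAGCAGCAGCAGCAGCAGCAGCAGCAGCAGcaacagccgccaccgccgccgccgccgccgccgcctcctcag
The 250 bases before the RefSeq start of 3 members (GRCh38.p14) stand for the patterns described below, namely HTT (lower in clone 37 and higher in clone 15), NOP14 (higher in both) and ADRA2C (lower in both). The windows are chr4:3074431-3074680 on the plus strand for HTT, chr4:2963407-2963656 on the minus strand for NOP14 and chr4:3766135-3766384 on the plus strand for ADRA2C. Capitals mark the GC box GGGCGG or its reverse complement CCGCCC.
HTT promoter: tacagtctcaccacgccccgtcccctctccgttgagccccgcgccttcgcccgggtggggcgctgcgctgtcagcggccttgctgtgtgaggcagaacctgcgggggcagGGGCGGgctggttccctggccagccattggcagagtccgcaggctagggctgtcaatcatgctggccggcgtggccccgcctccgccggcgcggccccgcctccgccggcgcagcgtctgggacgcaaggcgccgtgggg
NOP14 promoter: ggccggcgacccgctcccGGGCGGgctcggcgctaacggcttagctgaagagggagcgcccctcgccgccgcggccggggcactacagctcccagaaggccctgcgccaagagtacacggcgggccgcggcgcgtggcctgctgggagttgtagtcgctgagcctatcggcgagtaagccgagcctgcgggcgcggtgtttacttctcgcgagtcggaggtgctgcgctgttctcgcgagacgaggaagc
ADRA2C promoter: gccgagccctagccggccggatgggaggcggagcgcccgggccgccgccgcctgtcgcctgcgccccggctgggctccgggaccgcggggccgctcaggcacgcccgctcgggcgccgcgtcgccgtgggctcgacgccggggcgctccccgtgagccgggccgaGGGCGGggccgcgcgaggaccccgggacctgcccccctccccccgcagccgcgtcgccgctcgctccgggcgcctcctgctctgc
Each of the 3 windows held 1 GC box. The HTT window also held a directly repeated unit of 20 bases, ggccccgcctccgccggcgc, in 2 adjacent copies at positions -68 to -29 from the start. RefSeq windows were had for 47 of the 53 members (74 windows, since some genes have several starts). A GC box on either strand was present in 64.9% of the members' windows and in 42.6% of all 35116 windows, and TATAAA or its reverse complement TTTATA in 5.41% and 10.7%. The median number of CG dinucleotides was 26 in the members' windows and 11 in all windows. These matches describe letters in fixed windows and not binding.

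Gene counts summed to between 10334090 and 38093340 per library, and the 3 deepest were those of clone 15. The read length was 100 bp in clone 15 and 75 bp in parental and clone 37, so wherever clone 15 is compared, its read length and the clone itself cannot be told apart. Reads mapped to several places made up 4.59% to 5.98% of read pairs in clone 15 and 10.4% to 13.95% in the other 6 libraries, and reads assigned to no gene on the transcript strand 33.7% to 34.6% and 19.2% to 29.9%. Their part in the values of clone 15 was not tested. All 11 markers listed for HEK293T, such as VIM, NEFM and GATA3, were at 1 CPM or more in all 9 libraries. CPM is a gene's count per 1000000 gene counts of its library. Of 10 markers of other cell types, 8 stayed under 1 CPM in every library, CD3E, HBB and MYH1 had no counts, and LUM (up to 2.41 CPM) and GFAP (up to 1.29 CPM) were the exceptions. The summed CPM of the HEK293T markers ranged from 1440 to 1748 in parental, from 4206 to 4362 in clone 15 and from 926 to 998 in clone 37, and that of the other markers from 2.88 to 3.52, from 1.44 to 2.95 and from 1.00 to 1.55. The differences in the first sum came mostly from the neurofilament genes NEFM (means of 559 CPM in parental, 2728 in clone 15 and 137 in clone 37) and NEFL (235, 716 and 60.7), while VIM stood at 545, 547 and 543 and LHX1 and WT1 had their highest means in clone 37. The part of these differences in the members' values was not tested. No label says that replicates were separate cultures, so p values measure the spread between these libraries, which may be technical. Levels are relative to the library, so fewer cells with a transcript and less transcript per cell cannot be told apart.

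HTT was one of the most highly counted genes of the block. In parental cells it had the second highest count, at 343 ± 14.4 CPM (SD, n = 3), below NSD2, a histone H3 lysine methyltransferase, at 357 ± 8.89 CPM. Scaled to exon length it came eighth of 53, at 17.3 ± 0.727 CPM per kb. The highest level per kb belonged to SLBP, the protein that binds the stem-loop of histone messenger RNA, at 39.4 ± 2.10 CPM per kb. NOP14, a factor of small ribosomal subunit assembly, followed at 37.4 ± 1.54. The nearest neighbours of HTT in this order, NSD2 (18.1 ± 0.449) above and LYAR (17.1 ± 0.772) below, differed from it by about the spread of the replicates.

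The 3 parental libraries had 336.0, 333.4 and 359.5 CPM of HTT. The 3 clone 15 libraries had 403, 416.6 and 395.5 CPM, and the 3 clone 37 libraries 289.7, 292.7 and 264 CPM. No clone 15 library overlapped parental and no clone 37 library did either. The fitted log2 fold change against parental was -0.31 (SE 0.06, adjusted p = 0.000325) for clone 37 and 0.21 (SE 0.08, adjusted p = 0.0341) for clone 15, by edgeR's quasi-likelihood test with Benjamini-Hochberg adjustment over all tested genes. Both comparisons use the same parental libraries. HTT was chosen for its opposite directions in the clones. The p values and calls of HTT, also between the clones, are therefore a description and no test. Directly between the clones, the HTT value of clone 37 against clone 15 was -0.52 (SE 0.05, adjusted p = 2.12e-09). The call in clone 15 was lost without parental replicate 1 (0.17, adjusted p = 0.193) and without parental replicate 3 (0.21, adjusted p = 0.0955). It was also lost with unstranded counts (0.15, adjusted p = 0.219) and with no filter on low counts (0.21, adjusted p = 0.1). In clone 37 it was lost when per-library trends with GC content and with length were removed (-0.14, adjusted p = 0.0958). In that setting the value in clone 15 was 0.18 (adjusted p = 0.0551).

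The neighbours were then set beside HTT in each library, as log2 CPM minus the parental mean, for the 43 other members tested in both comparisons with parental. In clone 15 replicates 1, 2 and 3, HTT stood at 0.23, 0.28 and 0.21, and the median of the others at 0.27, 0.38 and 0.23. In clone 37, HTT stood at -0.24, -0.23 and -0.38, and the median of the others at -0.26, -0.27 and -0.32. Relative to the median of its neighbours, HTT thus lay between -0.10 and 0.04 in the 6 clone libraries, under it in the 3 libraries of clone 15. In the fits of clone 15 against parental, HTT stood at -0.08 from the median of the others, and at -0.09 with GC and length trends removed. In clone 37 against parental HTT stood at -0.02 from that median. With GC and length trends removed it stood at 0.10, where HTT was not called (-0.14) and the members' median was -0.23. Between the clones the same setting moved that difference to 0.21. The difference between HTT and the others' median was -0.06 ± 0.04 in clone 15, 0.00 ± 0.05 in clone 37 and -0.0036 ± 0.05 in parental (SD, n = 3 each). Of the 43 other members, 35 to 40 lay above the parental mean in each clone 15 library and 7 to 10 in each clone 37 library. In parental replicates 1, 2 and 3 these numbers were 26, 11 and 30, so parental replicate 2 came close to clone 37. Its median of the others was -0.06. A like measure over all genes tested in both comparisons with parental had medians from 0.01 to 0.06 in the 6 clone libraries. For it 0.5 CPM was added before the logarithm, which was not done for the members.

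**Figure D1:**
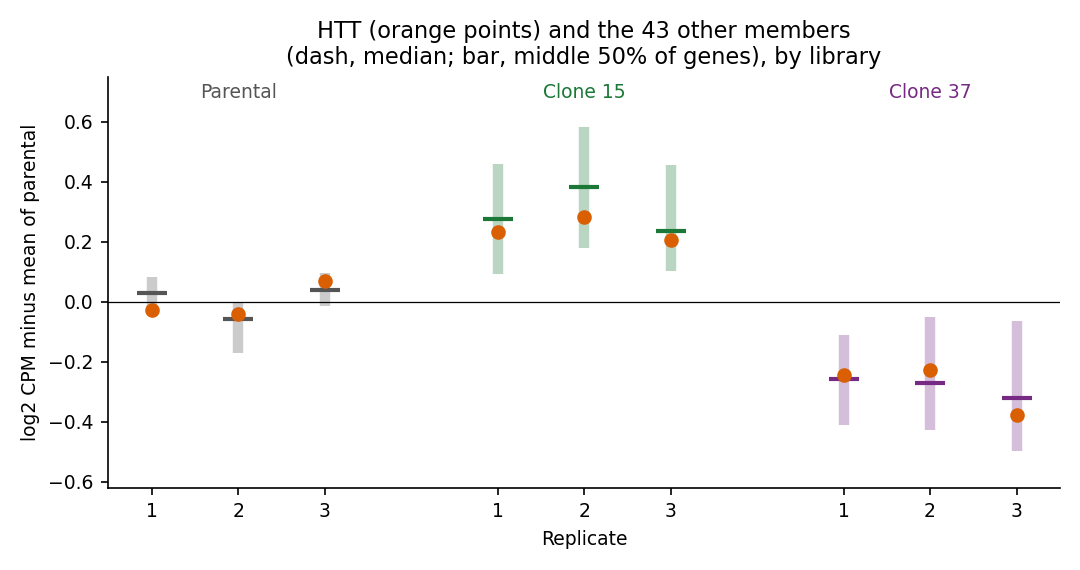
Values of log2 CPM minus the parental mean on the vertical axis, for each of the 9 libraries on the horizontal axis. Orange points are HTT, dashes the median of the 43 other members and bars the middle 50% of those genes. HTT lies above 0 in the 3 clone 15 libraries and below 0 in the 3 clone 37 libraries, within the bar of its neighbours in each of the 6.

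The block as a whole carried more counts in clone 15 and fewer in clone 37. The members' summed CPM was 2866, 2748 and 2900.2 in the parental libraries, 3541, 3881 and 3581 in those of clone 15, and 2443, 2469 and 2365 in those of clone 37. Neither clone overlapped parental in this sum. The share of HTT in it was 12.1% ± 0.339 for parental, 11.1% ± 0.323 for clone 15 and 11.6% ± 0.399 for clone 37 (SD, n = 3 for each), and the clone 15 libraries, from 10.7% to 11.4%, lay below the parental ones, from 11.7% to 12.4%.

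Against parental cells, most tested members had lower values in clone 37. Of 53 members 44 passed the filter on low counts, and 29 of these were called at an adjusted p under 0.05, which 54.0% of all 16501 tested genes were. Lower values were called in 26 members, against 27.3% of all genes, and higher values in 3, against 26.7%. The rule that chose the members used this contrast, so nothing is read from these shares. The median log2 fold change was -0.30 over the 44 members, 38 of them negative, and 0.02 over all genes. The 26 include DOK7, which passed the filter only through the parental libraries. The 3 members called higher were FGFRL1, NOP14 and LYAR, and 3 others (MAEA, FAM53A and ZFYVE28) had positive values without a call. On the side of HTT toward the chromosome end 18 of 34 tested members were called lower and 2 higher (median -0.28), and on the other side 7 of 9 lower and 1 higher (median -0.43).

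Against the same parental cells, most tested members had higher values in clone 15. Of 46 tested members 30 were called, which 51.4% of all 17703 tested genes were. Higher values were called in 27, against 25.1% of all genes, and lower values in 3, against 26.2%. The 27 include MSANTD1, which passed the filter through clone 15. Again the rule used the contrast and the shares carry no reading. The median was 0.29 over the 46 members, 39 of them positive, and 0.02 over all genes. The 3 lower members, ADRA2C, TMEM128 and NSG1, all lie on the side of HTT away from the chromosome end, where 4 of 10 tested members were called higher and 3 lower. On the other side 22 of 35 were called higher and none lower.

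By calls in both comparisons, 13 members were lower in clone 37 and higher in clone 15, namely GAK, TMEM175, DGKQ, CTBP1, TMEM129, TACC3, FGFR3, FAM193A, ADD1, MFSD10, HTT, LRPAP1 and STX18. Of these, 6 lost a call against parental under at least 1 of 16 alternatives (HTT, TMEM175, DGKQ, TMEM129, FGFR3 and STX18), and the other 7 kept both calls in all 16. Lower in clone 37 and not called in clone 15 were 10 members, MYL5, PCGF3, CPLX1, UVSSA, NSD2, NELFA, MXD4, SH3BP2, RGS12 and DOK7. Of these, DOK7 passed the filter in clone 37 against parental only through parental and is given without a test. Higher in clone 15 and not called in clone 37 were another 10, PIGG, MAEA, SLBP, LETM1, NAT8L, POLN, ZFYVE28, RNF4, TNIP2 and GRK4. FGFRL1, NOP14 and LYAR were higher in both, and ADRA2C, TMEM128 and NSG1 lower in both. ZNF595, IDUA, FAM53A, HAUS3 and ZBTB49 were called in neither. The share of all genes with each of these pairs of calls is not given here, and both comparisons share the parental libraries. Nothing is therefore read from these counts. A call in one clone and none in the other does not show that the clones differ. The direct comparison below gives the difference between the clones, as a description as well.

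**Figure D2:**
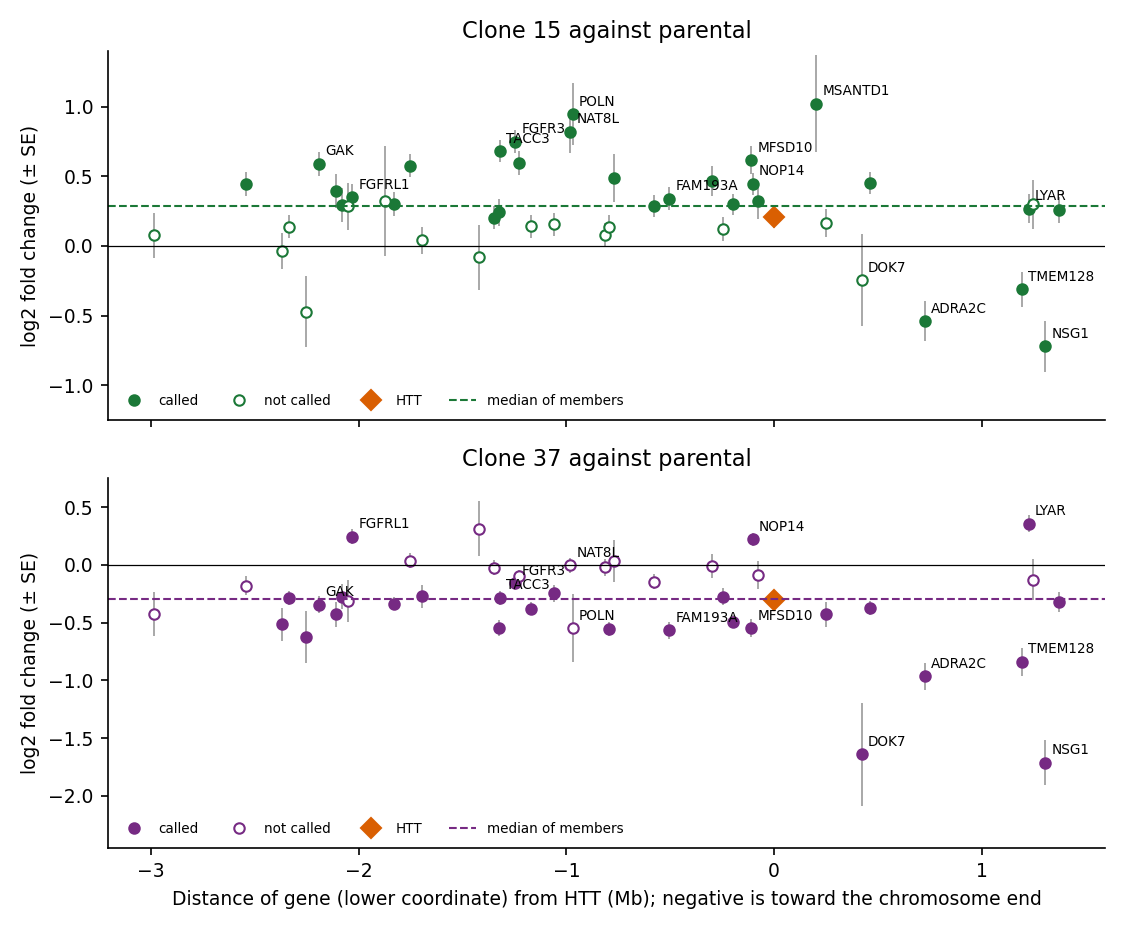
Fitted log2 fold change against parental (vertical axis, ± SE) of each tested member by distance from HTT in Mb (horizontal axis), with clone 15 above and clone 37 below. Filled points were called, open points were not, the orange diamond is HTT and the dashed line the median of the members, 0.29 in clone 15 and -0.30 in clone 37. HTT lies near the dashed line in both panels, and NSG1, ADRA2C and TMEM128 lie below 0 in both.

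Among members tested in both comparisons with parental, the nearest to HTT on the chromosome-end side were MFSD10, NOP14 and GRK4, and on the other side RGS12, DOK7 and LRPAP1. MSANTD1, nearer still on that other side, was tested in clone 15 but not in clone 37 and is described with the genes of transcription. MFSD10, a membrane transporter of the major facilitator family, had 43.6, 40.4 and 43.6 CPM in parental libraries, 59.6, 79.9 and 60.3 in those of clone 15 and 30.3, 30.8 and 27.8 in those of clone 37, with no overlap between any of the groups. The fitted change of MFSD10 was 0.62 (SE 0.10, adjusted p = 1.23e-05) for clone 15 and -0.55 (SE 0.07, adjusted p = 8.34e-06) for clone 37. LRPAP1, a chaperone of LDL receptor family proteins, had 94.8, 99.2 and 92.2 CPM in parental libraries, 131, 137 and 133 in those of clone 15 and 77.1, 74.4 and 74.0 in those of clone 37. It too separated all 3 groups, with log2 fold changes of 0.45 (SE 0.08, adjusted p = 3.18e-05) for clone 15 and -0.37 (SE 0.06, adjusted p = 5.47e-05) for clone 37. With GC and length trends removed the clone 37 value of LRPAP1 was -0.23 (adjusted p = 0.017). RGS12, a regulator of G-protein signalling, fell by 0.43 (SE 0.11, adjusted p = 0.00265) on the log2 scale in clone 37 and was not called in clone 15 (0.16). GRK4, a G-protein-coupled receptor kinase, was not called in clone 37 (-0.09). In clone 15 it was called (0.32, adjusted p = 0.041), but 9 of 16 alternatives lost the call, with a value of 0.19 when GC and length trends were removed. DOK7, an adaptor of muscle synapse signalling, was near the filter on low counts, with 20, 19 and 13 counts in parental libraries. Clone 37 had 2, 4 and 9 counts, and none of its libraries reached the 0.858 CPM that the filter asks for in 3 libraries of that comparison. DOK7 was therefore tested only because it was higher in parental, and its fitted value of -1.64 (SE 0.45) is given without a test.

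By role, counts of called members rest on the same selected contrasts and on few genes, and the roles were assigned with results known. They describe the members beside the shares of all genes given above (26.7% higher and 27.3% lower in clone 37, 25.1% and 26.2% in clone 15), and nothing is read from them about a role. Genes of RNA and ribosome assembly had a median of 0.22 in clone 37, with 2 of 3 members called higher and none lower, and all 3 were called higher in clone 15 (median 0.27). NOP14 had 128, 131 and 139 CPM in parental libraries, 181, 179 and 194 in those of clone 15 and 160.3, 157 and 155 in those of clone 37. Both clones lay above every parental library, and the fitted change of NOP14 was 0.22 (SE 0.06, adjusted p = 0.00249) for clone 37 and 0.45 (SE 0.08, adjusted p = 3.6e-05) for clone 15. Its exons overlap an antisense gene over 17.1% of their length, and with unstranded counts the value in clone 37 was 0.16 and no longer called (adjusted p = 0.0894). LYAR, a nucleolar protein, had 38.2, 41.7 and 39.3 CPM in parental libraries, 50.6, 41.4 and 54.9 in those of clone 15 and 52.1, 51.3 and 52.4 in those of clone 37. Only clone 15 overlapped parental, through its replicate 2. The log2 fold change of LYAR was 0.36 (SE 0.07, adjusted p = 0.000339) for clone 37 and 0.27 (SE 0.10, adjusted p = 0.033) for clone 15, where 8 of 16 alternatives lost the call. SLBP was called in clone 15 (0.20, adjusted p = 0.0438), a call that 9 of 16 alternatives lost, with 0.05 when GC and length trends were removed, and it was not called in clone 37 (-0.02).

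Genes of transcription and chromatin were lower in clone 37 in 5 of 7 tested members (median -0.34) and higher in clone 15 in 2 of 8 (median 0.15). The 2 are CTBP1 and MSANTD1, and MSANTD1 is given without a test, as explained below. NSD2 had 367, 355 and 349 CPM in parental libraries, 280.2, 289 and 269 in those of clone 37 and 404, 390.4 and 410.4 in those of clone 15. Clone 37 lay below all parental libraries, with a fitted value of -0.38 (SE 0.06, adjusted p = 2.54e-05). For clone 15 NSD2 stood at 0.14 and was not called (adjusted p = 0.164), although 4 of 16 alternatives called it. With GC and length trends removed NSD2 was -0.24 (adjusted p = 0.00688) for clone 37 and 0.25 (adjusted p = 0.0102) for clone 15. MXD4, a partner of MAX and antagonist of MYC, fell by 0.56 (adjusted p = 5.83e-07) for clone 37. CTBP1, a transcriptional corepressor, fell by 0.34 (adjusted p = 5.37e-05) for clone 37 and rose by 0.30 (adjusted p = 0.00412) for clone 15. PCGF3, a Polycomb group protein, and NELFA, a subunit of the negative elongation factor, were called lower in clone 37 alone (-0.29 and -0.24). The value of PCGF3 was -0.19 with GC and length trends removed, where it was also called in clone 15 (0.21), and NELFA lost its call without clone 37 replicate 3 (-0.20). With protein-coding genes alone PCGF3 (0.18) and NELFA (0.20) were called in clone 15 as well. MSANTD1, which begins just beyond HTT, was tested in clone 15 alone, where 0.925, 0.575 and 0.842 CPM in parental stood against 1.26, 1.91 and 1.72. It passed the filter, which asks for 0.614 CPM in 3 libraries of that comparison, through clone 15, where it was higher, so its fitted log2 fold change of 1.02 (SE 0.35) is given without a test. The value was 0.85 without parental replicate 2 and 0.91 without clone 15 replicate 2.

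Among genes of mitosis, meiosis and DNA repair, 2 of 4 tested members were lower in clone 37 (TACC3 and UVSSA) and 2 of 4 higher in clone 15 (TACC3 and POLN). The call of UVSSA, which acts in transcription-coupled repair, was lost in 6 of 16 alternatives and its value went from -0.27 to -0.10 when GC and length trends were removed. TACC3, which stabilises spindle fibres, had 136, 132 and 147 CPM in parental libraries, 224, 235 and 219 in those of clone 15 and 122, 114 and 111 in those of clone 37. The 3 groups did not overlap. Its log2 fold change was 0.68 (SE 0.08, adjusted p = 7.68e-08) for clone 15 and -0.28 (SE 0.06, adjusted p = 0.000595) for clone 37. POLN, a translesion DNA polymerase, had 6.38, 2.66 and 7.04 CPM in parental libraries, 10.4, 10.9 and 9.76 in those of clone 15 and 3.65, 3.58 and 3.81 in those of clone 37. Parental replicate 2 was low and lay below all clone 37 libraries. The fitted value for POLN was 0.95 (SE 0.22, adjusted p = 0.00197) for clone 15, or 0.62 (adjusted p = 0.00189) without parental replicate 2, and in clone 37 -0.55 and not called (adjusted p = 0.14). Without parental replicate 2 POLN was called lower in clone 37 (-0.89, adjusted p = 1.37e-05), as it was with no filter on low counts (-0.55, adjusted p = 0.0268) and with counts thinned to the smallest library (-0.66, adjusted p = 0.0485). HAUS3, a subunit of the augmin complex whose exons overlap those of POLN, was called in neither (-0.02 and 0.08), except in clone 15 with GC and length trends removed (0.37, adjusted p = 0.00144).

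All 3 ubiquitin ligase genes were called higher in clone 15, at 0.57 for MAEA, 0.29 for RNF4 and 0.24 for TMEM129. The call of TMEM129 was lost in 6 of 16 alternatives, with 0.15 without clone 15 replicate 2. In clone 37 TMEM129 fell by 0.55 (adjusted p = 6.06e-06) and the other two were not called (0.04 for MAEA and -0.14 for RNF4), though 4 of 16 alternatives called RNF4, with values from -0.18 to -0.16.

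Genes of membrane traffic and the lysosome were lower in clone 37 in 6 of 8 tested members (median -0.36). In clone 15 they were higher in 5 of 8 and lower in 1 (median 0.34). GAK, a kinase of clathrin uncoating, had 100.4, 85.2 and 106 CPM in parental libraries, 140.2, 168 and 138 in those of clone 15 and 80.5, 76.6 and 76.1 in those of clone 37. It separated the 3 groups, with log2 fold changes of 0.59 (SE 0.09, adjusted p = 3e-06) for clone 15 and -0.34 (SE 0.07, adjusted p = 0.000483) for clone 37. NSG1, an endosomal protein of neurons, had 8.97, 7.70 and 8.11 CPM in parental libraries, 5.20, 6.38 and 3.59 in those of clone 15 and 2.37, 1.94 and 3.24 in those of clone 37. All libraries of both clones lay below parental. The log2 fold change of NSG1 was -1.71 (SE 0.20, adjusted p = 1.12e-06) for clone 37, the largest among the members, and -0.72 (SE 0.18, adjusted p = 0.00171) for clone 15. CPLX1, a complexin of synaptic vesicle release, was called lower in clone 37 (-0.62, adjusted p = 0.0279), where 5 of 16 alternatives lost the call, and stood at -0.47 in clone 15 without a call. Without clone 15 replicate 2 it was -0.81 there and called (adjusted p = 0.0165).

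Among receptors and signalling genes, 6 of 9 tested members were lower and 1 higher in clone 37 (median -0.28), and 5 of 9 higher and 1 lower in clone 15 (median 0.29). The 6 include DOK7, which passed the filter only through parental and is given without a test. They also include SH3BP2, a signalling adaptor, at -0.28, which was -0.14 and not called with GC and length trends removed. FGFR3 had 99.9, 93.4 and 98.0 CPM in parental libraries, 156, 186 and 158 in those of clone 15 and 87.3, 89.6 and 88.2 in those of clone 37. Clone 15 stood well above the other libraries, and clone 37 lay just below parental. The fit for FGFR3 gave 0.75 (SE 0.08, adjusted p = 3.51e-08) for clone 15 and -0.16 (SE 0.06, adjusted p = 0.0221) for clone 37, where 9 of 16 alternatives lost the call. FGFRL1, a related receptor without a kinase domain, had 46.6, 48.8 and 47.1 CPM in parental libraries, 58.1, 69.1 and 58.9 in those of clone 15 and 58.4, 58.4 and 55.4 in those of clone 37. It was above parental in all 6 clone libraries, with log2 fold changes of 0.35 (SE 0.09, adjusted p = 0.00181) for clone 15 and 0.25 (SE 0.07, adjusted p = 0.0045) for clone 37. Without parental replicate 3 the call in clone 37 was lost (0.19, adjusted p = 0.0545). ADRA2C, the alpha-2C adrenergic receptor, had 20.3, 21.9 and 18.1 CPM in parental libraries, 11.8, 17.9 and 12.9 in those of clone 15 and 9.31, 12.0 and 10.2 in those of clone 37. It was below parental in all 6, though by little in clone 15 replicate 2, with log2 fold changes of -0.97 (SE 0.12, adjusted p = 2.84e-06) for clone 37 and -0.54 (SE 0.14, adjusted p = 0.00308) for clone 15. With GC and length trends removed the clone 15 value of ADRA2C was -0.33 (adjusted p = 0.0276).

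All 4 tested genes of transport and metabolism rose in clone 15 (median 0.61), and 1 of them, MFSD10, fell in clone 37. NAT8L, which makes N-acetylaspartate, had 49.8, 49.4 and 50.7 CPM in parental libraries, 73.5, 117 and 80.7 in those of clone 15 and 50.3, 53.9 and 48.2 in those of clone 37. Clone 37 overlapped parental, and clone 15 replicate 2 stood apart from the other two of its group. For NAT8L the fit in clone 15 gave 0.82 (SE 0.15, adjusted p = 0.0011), and without parental replicate 2 it was 0.83 and not called (adjusted p = 0.0689). LETM1, a mitochondrial inner membrane protein, rose by 0.59 (adjusted p = 2.4e-06) for clone 15 and PIGG, an enzyme of GPI anchor synthesis, by 0.44 (adjusted p = 0.000126), and neither was called in clone 37 (-0.10 and -0.18). Of 16 alternatives 4 called PIGG lower in clone 37, with -0.26 without parental replicate 2.

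Of the 2 cytoskeletal genes, ADD1, an adducin of the membrane skeleton, fell by 0.49 (adjusted p = 1e-06) for clone 37 and rose by 0.30 (adjusted p = 0.00192) for clone 15. MYL5, a myosin light chain, fell by 0.51 (adjusted p = 0.00623) for clone 37 and stood at -0.03 in clone 15 without a call. FAM193A had 61.4, 53.5 and 65.1 CPM in parental libraries, 74.2, 80.4 and 77.7 in those of clone 15 and 40.4, 43.5 and 39.8 in those of clone 37. Its groups did not overlap, and its log2 fold change was -0.57 (SE 0.08, adjusted p = 6.6e-06) for clone 37 and 0.34 (SE 0.08, adjusted p = 0.00121) for clone 15. TMEM128, a predicted membrane protein, had 16.9, 18.6 and 14.8 CPM in parental libraries, 13.1, 13.8 and 14.7 in those of clone 15 and 9.68, 9.10 and 9.88 in those of clone 37. Clone 15 reached almost to the lowest parental library. The fit for TMEM128 gave -0.84 (SE 0.12, adjusted p = 1.67e-05) for clone 37 and -0.31 (SE 0.12, adjusted p = 0.0399) for clone 15, where 11 of 16 alternatives lost the call, with -0.20 without parental replicate 2.

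**Figure D3:**
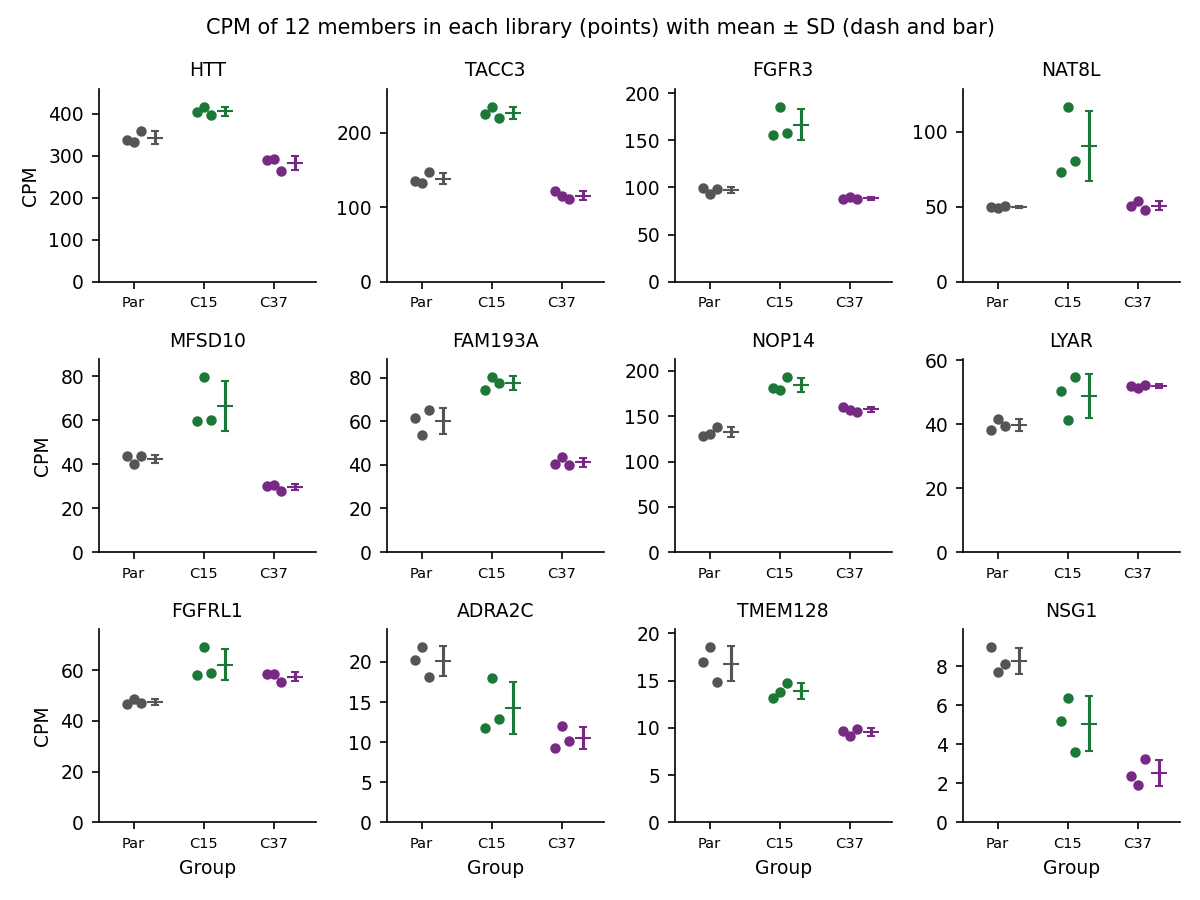
CPM (vertical axis, from 0) of 12 members in the 3 libraries of parental (Par), clone 15 (C15) and clone 37 (C37) cells on the horizontal axis, with points for libraries and a dash and bar for the mean ± SD. The points of HTT, TACC3, MFSD10 and FAM193A fall into 3 separate levels, those of NOP14 and FGFRL1 are above parental in both clones, and those of ADRA2C, TMEM128 and NSG1 are below parental in both.

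The clones were also compared with each other, a comparison that does not involve the parental libraries. Of 46 tested members 40 were called, against 57.7% of all 17712 tested genes, and all 40 were lower in clone 37, against 29.0% of all genes lower and 28.7% higher. HTT had been seen to differ in direction between these clones before the members were chosen, so this count is a description as well. The median was -0.53 over the members and -0.0015 over all genes. The 6 members not called were CPLX1, FGFRL1, SPON2, FAM53A, HAUS3 and LYAR, of which SPON2 passed the filter through clone 15. MSANTD1 and DOK7 are among the 40, but only 1 clone 37 library of each reached the filter's 0.645 CPM and both passed it through clone 15, where they were higher, so their fitted values of -1.56 and -1.41 are given without a test. Among the others POLN, a gene of few counts (-1.49, adjusted p = 1.29e-09), and MFSD10 (-1.16, adjusted p = 4.72e-09) had the largest differences, and NSG1, TACC3 (-0.96, adjusted p = 1.94e-14) and GAK (-0.93, adjusted p = 1.86e-12) followed. The value of DOK7 was -1.05 without clone 37 replicate 1. HTT, at -0.52, was within 0.02 of the median of the other members. With the GC and length trends removed, HTT stood at -0.31 and lay 0.21 above that median.

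The starts of neighbouring members lie within 1000 bases of each other, on opposite strands, in 5 pairs. GAK and TMEM175, a lysosomal potassium channel, start 14 bases apart and shared their direction of call in either clone, at -0.34 and -0.43 in clone 37 and 0.59 and 0.39 in clone 15. TMEM129 and TACC3 start 132 bases apart and were also called alike, at -0.55 and -0.28 in clone 37 and 0.24 and 0.68 in clone 15. DGKQ, a diacylglycerol kinase, and IDUA start 102 bases apart and had nearly equal values, -0.28 and -0.31 in clone 37 and 0.29 and 0.28 in clone 15, although IDUA, with fewer counts, was called in neither. In 9 of 16 alternatives DGKQ lost its call in clone 37, and in 8 of 16 in clone 15, where it was 0.17 without parental replicate 2 and 0.18 without clone 15 replicate 2. Without parental replicate 2 the clone 37 values were -0.42 for DGKQ and -0.52 for IDUA, which was then called. IDUA was also called in clone 37 with unstranded counts (-0.50) and in clone 15 with GC and length trends removed (0.50). The call of TMEM175 in clone 15 was lost without parental replicate 2 (0.31) and without clone 15 replicate 2 (0.27). In the remaining 2 pairs the values were all positive in clone 15 and differed in sign in clone 37, where GRK4 and ZBTB49 were not called. NOP14 and GRK4 start 223 bases apart and stood at 0.22 and -0.09 in clone 37 and at 0.45 and 0.32 in clone 15. LYAR and ZBTB49, a zinc finger protein, start 82 bases apart and stood at 0.36 and -0.13 in clone 37 and at 0.27 and 0.30 in clone 15, where ZBTB49 was not called either.

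Values of the wider chromosome were set beside those of the block. In clone 37 the median log2 fold change of tested genes was -0.29 in the first 5 Mb (60 genes), -0.37 from 5 to 10 Mb (25 genes), -0.46 from 10 to 15 Mb (6 genes), -0.45 from 15 to 20 Mb (12 genes) and -0.68 from 20 to 25 Mb (8 genes). It was -0.11 from 25 to 30 Mb (10 genes), 0.15 from 30 to 35 Mb (2 genes), -0.38 from 35 to 40 Mb (19 genes) and 0.03 from 40 to 45 Mb (17 genes). Except in the bin of 2 genes, the medians in clone 37 thus stayed negative from the members up to 40 Mb, several of them in bins of few genes, and over chromosome 4 beyond 4.6 Mb the median was 0.12 (536 genes). In clone 15 the median was 0.28 in the first 5 Mb (68 genes), 0.05 from 5 to 10 Mb (27 genes), 0.00 from 10 to 15 Mb (6 genes) and -0.08 from 15 to 20 Mb (14 genes). It was again 0.28 from 20 to 25 Mb (10 genes), then -0.16 from 25 to 30 Mb (10 genes), -1.86 from 30 to 35 Mb (2 genes), 0.12 from 35 to 40 Mb (25 genes) and -0.06 from 40 to 45 Mb (18 genes). Beyond 4.6 Mb the clone 15 median was -0.04 (579 genes). Of the 91 other genes annotated in the first 4.6 Mb, 15 were tested for clone 37. Their median was -0.29, near the members' -0.30, with 0.02 over all genes. Lower values were called in 6 of them, against 27.3% of all genes, and higher values in none, against 26.7%. For clone 15, 19 were tested. Their median was 0.07, nearer to the 0.02 of all genes than to the members' 0.29. Calls were higher for 6, against 25.1% of all genes, and lower for 3, against 26.2%. Medians of whole chromosomes also lay away from 0, at -0.38 for chromosome 2 and 0.31 for chromosome 16 in clone 37 and at -0.47 for chromosome 2 and 0.32 for chromosome 20 in clone 15. The number of copies of these regions in the 3 lines was not measured here, and its part in the members' values was not tested.

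**Figure D4:**
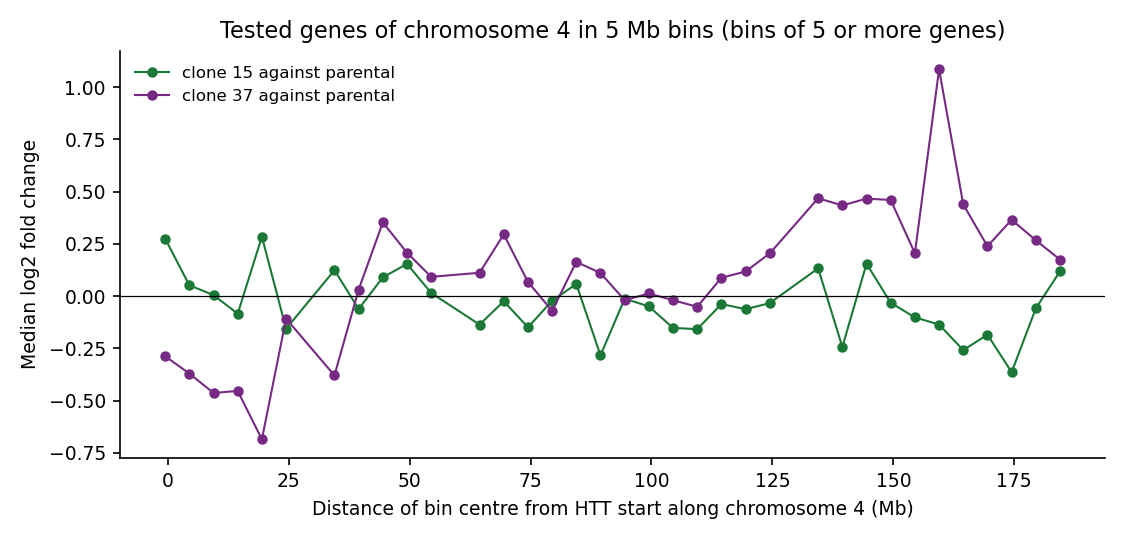
Median log2 fold change against parental (vertical axis) of tested genes of chromosome 4 in bins of 5 Mb that held 5 or more genes, by distance of the bin's centre from the HTT start in Mb (horizontal axis), for clone 15 and clone 37. The bin that holds HTT is at 0.28 in clone 15 and -0.29 in clone 37, and the clone 37 line stays below 0 over the plotted bins up to the one at 35 to 40 Mb, while the clone 15 line returns to 0.28 in the bin at 20 to 25 Mb.

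Counts on the strand opposite the transcript come from a column that did not choose the members. For HTT they were few, at 4, 6 and 0 counts in the parental libraries, 18, 4 and 7 in those of clone 15 and 0, 0 and 1 in those of clone 37. As a share of all stranded counts of HTT they made up 0.0798% ± 0.0697 for parental, 0.0836% ± 0.0403 for clone 15 and 0.0102% ± 0.0177 for clone 37 (SD, n = 3 for each). A count of 0 allows a share of up to 0.0639% in parental replicate 3 and of up to 0.0945% and 0.0992% in clone 37 replicates 1 and 2, counting error only. This share also holds the transcript-strand counts of HTT, on which the choice rested, so it is given without a test. Other members carried many opposite-strand reads. For MYL5 the share was 67.6% ± 7.17 (parental), 73.5% ± 4.39 (clone 15) and 71.4% ± 1.55 (clone 37). Its exons overlap genes of the opposite strand over 16.7% of their length, and the part of those genes' reads was not tested. SLC49A3, SLC26A1 and PDE6B overlap such genes too. Their parental shares were 98.9%, 97.1% and 100%, with few or no transcript-strand counts. For DOK7 the share was 46.7% ± 3.01, 69.2% ± 2.89 and 67.0% ± 14.9, and for NSG1 10.7% ± 3.21, 23.8% ± 1.5 and 26.6% ± 9.46. Scaled to the library's gene counts, opposite-strand reads of NSG1 stood at 1.30, 0.575 and 1.15 CPM in the parental libraries, 1.76, 1.83 and 1.13 in those of clone 15 and 0.913, 1.06 and 0.648 in those of clone 37. Clone 37 thus lay within the parental range, and its higher share restates the lower transcript-strand counts. Opposite-strand reads of DOK7 stood at 1.57, 1.08 and 0.995 CPM in the parental libraries, 2.68, 2.84 and 2.57 in those of clone 15 and 0.639, 1.06 and 0.729 in those of clone 37, so that clone 15 lay above all parental libraries and clone 37 did not.

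Near-identical copies bear on few members. None of the 75-base words of the longest HTT transcript occurred in another gene, while 14.6% did for MYL5, 10.9% for SLC26A1, 7.45% for NOP14 and 7.34% for PCGF3, whose counts are less certain. Most of the members not yet described had too few counts to test. PDE6B, a rod phosphodiesterase subunit, had 0 counts in all 9 libraries, which allows up to 0.0196 CPM over the pooled libraries. ZNF718, ZNF141, SLC49A3 and RNF212 reached at most 0.107 CPM in any library. SLC26A1, an anion transporter, reached 0.484 CPM and HGFAC, a secreted protease, 0.459 CPM. SPON2, a secreted matrix protein, reached 1.20 CPM. In clone 15 against parental it passed the filter through clone 15, where 3 libraries reached 0.614 CPM against 2 of parental. It was higher there, so its fitted value of 0.32, which was not called, is given without a test. ZNF595, a zinc finger protein next to the chromosome end, and FAM53A were tested in both clones without a call, at -0.43 and 0.31 in clone 37 and 0.08 and -0.08 in clone 15. ZNF595 was called lower in clone 37 without clone 37 replicate 1 (-0.58) and with protein-coding genes alone (-0.44).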

How the data were processed

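RNA of 9 HEK293T libraries (3 each of parental, clone 15 and clone 37) was depleted of ribosomal RNA and prepared with a directional kit, per the labels' protocols. The authors deposited unnormalised counts, one file a library. The submitters' processing notes name STAR 2.7.10a, FastQC 0.11.9 and hg38. The annotation release, trimming and filters are not given in the sources used here. Counts in column 4, the transcript strand, were used, and the 4 summary entries stayed out of library sizes and tests. Reads that map to several places are left out of such counts. Gene counts of 10334090 to 38093340 per library limit the precision of members under about 5 CPM.

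All 53 members matched by symbol, and positions, exon lengths and GC content came from GENCODE 29 (GRCh38). Promoters came from RefSeq (GRCh38.p14). Members, lists and roles were chosen with earlier results of these data known. Low genes were removed with filterByExpr, factors were set by TMM, and each comparison was fitted on its 6 libraries in edgeR 4.0.16 (robust glmQLFit, glmQLFTest) in R 4.3.3. P values were adjusted by Benjamini-Hochberg across all tested genes, with calls at an adjusted p under 0.05. The SE of a log2 fold change was had by dividing its size by the root of F. The fit was tested on simulated data.

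Values are given for HTT, the 3 nearest members on each side that both comparisons with parental tested, the 4 largest called changes each way in each comparison with parental (mean of at least 5 CPM), called members that go against the median, and untested members. Other members with values were chosen after their values were seen. Alternatives were DESeq2 1.42.0, RLE factors, unstranded counts, no filter or one of 1 CPM in 3 libraries, all 9 libraries in one fit, protein-coding genes alone, counts thinned to the smallest library, a replicate block, removal of GC and length trends, and leaving out each replicate. An exact permutation test of the opposite-strand share of HTT was run and is not reported, because the share contains the counts that chose the members. Reporter reads were not analysed here. Python 3.11.15 with pandas 2.3.3, scipy 1.17.1 and matplotlib 3.10.9 was used for the other steps.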

Additional observations from a re-analysis of the deposited data

Results flagged for a closer look

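For 13 members the effects in the clones against parental had opposite directions and were called in both. A called difference between the clones follows from that choice of members and adds no support to it. The share of all genes called in opposite directions is not given here, so nothing is read from the number of members. Of the 13, 6 lost a call against parental under at least 1 alternative (HTT, TMEM175, DGKQ, TMEM129, FGFR3 and STX18). The log2 fold changes of clone 37 against clone 15 were -1.16 for MFSD10, -0.96 for TACC3, -0.93 for GAK, -0.91 for FGFR3, -0.91 for FAM193A, -0.83 for LRPAP1 and -0.82 for TMEM175. They were -0.79 for ADD1, -0.79 for TMEM129, -0.64 for CTBP1, -0.58 for STX18, -0.57 for DGKQ and -0.52 for HTT. These members were chosen after HTT had moved in this way, and read length separates clone 15 from the other groups, so clone and read length cannot be told apart in these values.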

How the results depend on the processing

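No value that answers a comparison changed sign against its call under the alternatives run, and the members called stayed within 1.5 times of the counts given. For HTT in clone 37 against parental, removal of GC and length trends lost the call (-0.14, adjusted p = 0.0958), and moved the members' median to -0.23 and the difference between HTT and the others' median to 0.10. Between the clones the same setting moved that difference to 0.21. For HTT in clone 15 against parental, the call was lost with no filter on low counts (0.21, adjusted p = 0.1), with unstranded counts (0.15, adjusted p = 0.219), with GC and length trends removed (0.18, adjusted p = 0.0551) and with the replicate block (0.21, adjusted p = 0.0709). Leaving out each replicate gave HTT values from 0.17 to 0.24 there, with the call lost without parental replicate 1 or 3. It gave members' medians from -0.35 to -0.28 in clone 37 against parental and from -0.58 to -0.52 between the clones. Differences between HTT and the others' median ran from -0.0373 to 0.0202 in clone 37 against parental. They ran from -0.1185 to -0.051 in clone 15 against parental and from -0.007 to 0.0835 between the clones. The causes were not tested.

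Same-numbered replicates did not deviate together (correlations from -0.16 to 0.02), so the numbers do not pair the libraries. With the replicate block 27, 25 and 40 members were called in clone 37 against parental, clone 15 against parental and clone 37 against clone 15, and 8375, 8708 and 10490 of all genes. Of 133 values of members other than HTT 39 changed their call under at least 1 alternative, most often TMEM128 in clone 15 (11 of 16, values from -0.34 to -0.20), then FGFR3 (from -0.19 to -0.12) and DGKQ (from -0.32 to -0.19) in clone 37 and GRK4 (from 0.19 to 0.33) and SLBP (from 0.05 to 0.22) in clone 15 (9 of 16 each). DOK7 in clone 37 against parental and SPON2 could not be fitted with the filter of 1 CPM or when thinned, nor MSANTD1 between the clones when thinned.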
